A study of Mus musculus with 6 samples.

Results

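Natriuretic peptides and the fetal myosin switch were followed through 10 genes: Nppa, Nppb, Npr1, Npr3, Corin, Myh6, Myh7, Myh7b, Acta1 and Ankrd1. Each was read from the array row that the platform annotation assigns to that symbol alone, and the brightest row was taken where a gene had more than 1. All 10 were found among the 21506 genes tested.

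Left ventricles of 6 male mice were measured on the Affymetrix Mouse Gene 2.0 ST microarray, with total RNA of 1 mouse on each array. The 3 sickle mice were homozygous for Hbbtm2(HBG1,HBB*)Tow, an engineered human globin allele that gives sickle haemoglobin, with human alpha-globin in the form of Hbatm1(HBA)Tow. The 3 control mice carried the same human alpha-globin allele and the non-sickling Hbbtm3(HBG1,HBB)Tow. Both groups were on a B6;129 background and 10 to 14 weeks old. The alleles are germline replacements, and human globin takes the place of mouse globin in the controls too, so the comparison is between sickling and non-sickling human haemoglobin.

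Stretched heart muscle cells release atrial and B-type natriuretic peptide, which bind the receptor Npr1, raise cyclic GMP, relax vessels and promote salt loss. Corin cuts the atrial peptide from its precursor, and Npr3 binds the peptides and clears them. The mouse ventricle changes its motor protein around birth, from the slow beta-myosin Myh7 of the fetus to the fast alpha-myosin Myh6 of the adult, and loaded adult hearts are known to express Nppa, Nppb, Myh7 and the skeletal actin Acta1 again.

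Each cardiac myosin gene carries a microRNA in an intron, shown here because the microRNA rows are set beside their host genes further on. The mature arms below are from RefSeq (build GRCm38.p6), written 5′ to 3′ with the seed, bases 2 to 8, in capitals. The arm of Mir208a, in Myh6, lies at chr14:54949072-54949093 on the minus strand. That of Mir208b, in Myh7, lies at chr14:54975710-54975731 on the minus strand, and that of Mir499, in Myh7b, at chr2:155622893-155622913 on the plus strand.
mmu-miR-208a-3p: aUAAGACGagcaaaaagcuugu
mmu-miR-208b-3p: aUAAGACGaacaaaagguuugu
mmu-miR-499-5p: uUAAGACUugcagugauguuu
The arms of Mir208a and Mir208b share the seed UAAGACG and are identical at 19 of 22 positions. The arm of Mir499 has the seed UAAGACU, which is the same over bases 2 to 7.

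Nppa and Nppb are neighbours on the chromosome in the RefSeq gene table, and Myh6 and Myh7 are likewise adjacent protein-coding genes. Shown next are the 250 bases before the annotated start of Nppa and its neighbour Nppb, of which only Nppa had no overlap between the groups, and of Myh7 and Acta1, whose arrays fell in nearly the same order. All are from RefSeq, build GRCm38.p6, written 5′ to 3′ in the direction of the gene. Capitals mark matches, on either strand, to TATAAA (the TATA box), AGATAA (bound by GATA factors), AAGTG (the core bound by Nkx2-5), CATTCC (the M-CAT element of TEAD factors) and the CArG box of serum response factor.
Nppa (chr4:148000472-148000721, plus strand): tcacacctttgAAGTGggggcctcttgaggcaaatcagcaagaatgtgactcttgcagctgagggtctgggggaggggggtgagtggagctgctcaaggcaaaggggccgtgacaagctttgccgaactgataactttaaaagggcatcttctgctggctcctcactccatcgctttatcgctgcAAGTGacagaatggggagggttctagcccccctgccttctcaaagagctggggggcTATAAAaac
Nppb (chr4:147985650-147985899, plus strand): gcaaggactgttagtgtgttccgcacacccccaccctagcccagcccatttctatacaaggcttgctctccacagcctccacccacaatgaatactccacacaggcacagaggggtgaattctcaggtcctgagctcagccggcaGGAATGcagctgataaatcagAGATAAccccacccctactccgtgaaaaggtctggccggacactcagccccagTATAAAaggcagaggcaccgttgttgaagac
Myh7 (chr14:54994550-54994799, minus strand): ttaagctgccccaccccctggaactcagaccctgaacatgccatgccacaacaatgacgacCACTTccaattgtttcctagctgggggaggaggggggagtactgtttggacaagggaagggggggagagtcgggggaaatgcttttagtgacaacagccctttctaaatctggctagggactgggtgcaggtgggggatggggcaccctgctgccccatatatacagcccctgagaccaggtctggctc
Acta1 (chr8:123894776-123895025, minus strand): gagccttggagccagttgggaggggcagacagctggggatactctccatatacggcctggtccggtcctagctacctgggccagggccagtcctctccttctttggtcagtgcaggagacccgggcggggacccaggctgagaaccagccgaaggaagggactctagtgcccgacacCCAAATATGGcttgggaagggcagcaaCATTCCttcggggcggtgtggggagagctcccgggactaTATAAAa
The CArG box of Acta1 matches on both strands at the same bases, and no other marked matches overlap each other in these windows. Nppa holds the TATA box and 2 Nkx2-5 cores. Nppb holds the TATA box, the GATA motif and the M-CAT element. The Myh7 window holds the Nkx2-5 core alone, and a second annotated start of Myh7 in the same table has that core at 2 places and an M-CAT element. Acta1 holds the TATA box, the M-CAT element and a CArG box. Of 32851 windows of the same length before all annotated starts, 12.4% hold the TATA box, 9.99% the GATA motif, 40.7% the Nkx2-5 core, 12.6% the M-CAT element and 1.47% a CArG box. A match describes letters only and is not a measured site.

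Over all genes, 39 (0.181% of 21506) passed an adjusted p of 0.05 in limma, which pools the spread over genes, with Benjamini-Hochberg adjustment. No batch is recorded in the labels used here. Sickle replicate 3 stood apart: its score on the first principal component was 43.3, against -15.1 to -2.31 for the other 5 arrays. In control replicate 3 the atrial genes Sln and Myl7 read 8.08 and 7.75, while elsewhere Sln read 3.10 to 3.36 and Myl7 4.31 to 4.78. The rest of the atrial list was mixed. Myl4 was also highest there (5.93, against 5.02 to 5.55 elsewhere). Bmp10 read 5.01 there and was highest in control replicate 2 (5.33). Dkk3 was highest in sickle replicate 3 (7.93, against 7.19 in control replicate 3). The heart muscle list, with 10 of 10 markers measured, had a median within 0.13 of the control mean on every array. That compares the arrays with each other and does not test the ventricle label. All levels below are on the deposited log2 scale, differences are sickle minus control, and errors are SD for levels and moderated standard errors for differences.

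None of the 10 genes passed the adjustment, against 0.181% of all genes (0.167% higher and 0.0139% lower in sickle). Nppa was the 1 gene whose sickle arrays all lay above the control arrays, a pattern that 7.61% of all genes showed, and none lay wholly below, a pattern that 8.36% showed. Nppa was also the 1 gene of 10 with an unadjusted p under 0.05, which 8.69% of all genes reached. The median difference of the 10 was 0.06, beside -0.01 over all genes, and 7 of the 10 differed by less than 0.25 in either direction. That median was -0.011 without sickle replicate 3, so its sign rests on that array. It was 0.11 without control replicate 2.

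Nppa, which encodes atrial natriuretic peptide, read 12.97, 13.17 and 13.66 in sickle replicates 1, 2 and 3, against 12.63, 12.72 and 12.74 in control replicates 1, 2 and 3. Every sickle array was above every control array, and the sickle arrays were spread more widely (SD 0.35 in sickle and 0.06 in control, n = 3 each). The difference of 0.57 ± 0.17 is 1.48-fold (95% interval 1.13 to 1.95) and did not pass (limma adjusted p = 0.451, unadjusted 0.0113). Without sickle replicate 3, the highest array, the difference was 0.37 ± 0.10 or 1.30-fold (limma adjusted p = 0.396). Control replicate 3, with high Sln and Myl7, had the highest Nppa of the controls (12.74), and the difference without it was 0.59.

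Nppb, which encodes B-type natriuretic peptide and lies next to Nppa, did not separate the groups. It read 12.50, 12.45 and 12.73 in sickle, against 12.58, 12.60 and 12.39 in control. The highest array was again sickle replicate 3, but both other sickle arrays were below control replicates 1 and 2. The difference was 0.04 ± 0.11, with a 95% interval from 0.854-fold to 1.24-fold (limma adjusted p = 0.938).

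The ratio of Nppa to Nppb within an array sets the neighbours side by side. Set to a control mean of 0, it was 0.29, 0.55 and 0.75 in sickle replicates 1, 2 and 3, against -0.12, -0.06 and 0.18 in control replicates 1, 2 and 3. The groups did not overlap, and the sickle mean was 0.53, or 0.42 without sickle replicate 3. This is a description with no test, since the genes were chosen with earlier results known.

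**Figure D1:**
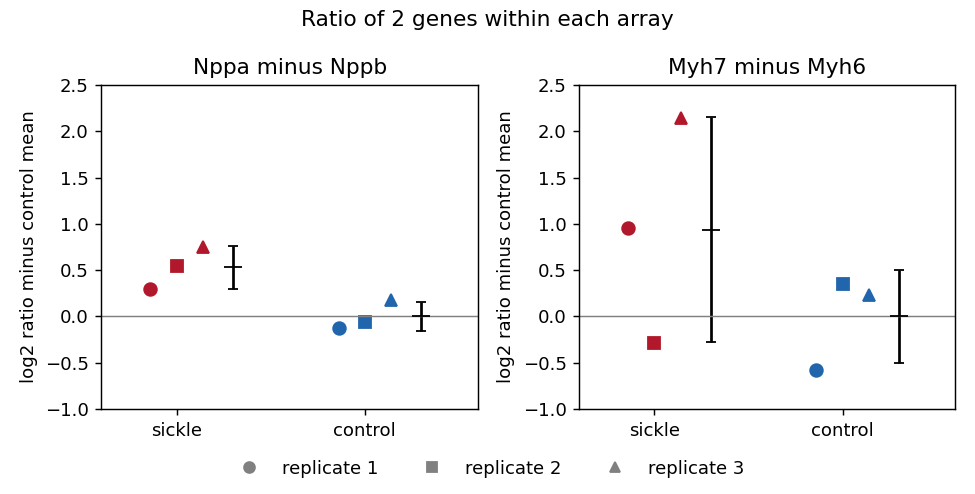
Log2 ratio of Nppa to Nppb (left) and of Myh7 to Myh6 (right) on each array, minus the mean of the 3 control arrays; points are arrays, marked by replicate, and bars give mean ± SD for sickle and control (n = 3 each). For Nppa and Nppb all sickle arrays (0.29 to 0.75) lie above all control arrays (-0.12 to 0.18), while for Myh7 and Myh6 the sickle arrays (-0.29 to 2.15) and the control arrays (-0.58 to 0.35) overlap.

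Corin, the protease that activates the atrial peptide, had a negative difference. Its level was 10.85, 11.14 and 10.97 in sickle, against 11.10, 11.26 and 11.21 in control. Sickle replicate 2 lay above control replicate 1, so the groups overlapped. The difference was -0.21 ± 0.11 (limma adjusted p = 0.621), and it was nearly the same without sickle replicate 3 (-0.20).

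Both receptor genes overlapped between the groups. Npr1, the guanylyl cyclase receptor that carries the signal, read 6.52, 6.85 and 7.02 in sickle, against 6.58, 6.82 and 6.73 in control (difference 0.09 ± 0.14, limma adjusted p = 0.879). A second, dimmer row for Npr1 disagreed in sign. There sickle read 5.25, 5.32 and 5.22, against 5.59, 5.35 and 5.38 in control, all sickle arrays below all control arrays, with a difference of -0.18 (limma adjusted p = 0.655 over all rows). With rows of opposite sign, Npr1 is given no direction. Npr3, the clearance receptor, read 7.80, 7.19 and 7.73 in sickle, against 7.92, 7.51 and 7.66 in control (difference -0.12 ± 0.19, limma adjusted p = 0.866), with sickle replicate 2 the lowest of the 6 arrays.

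**Figure D2:**
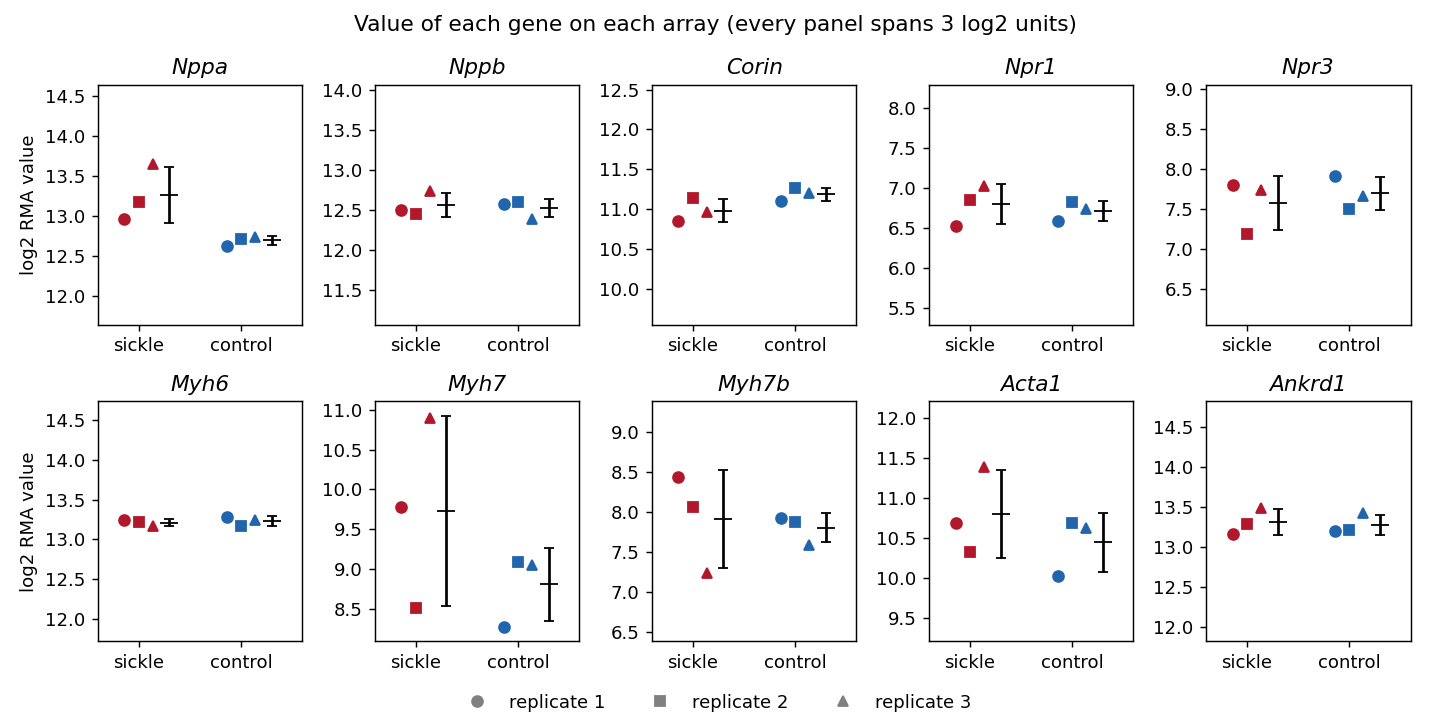
Log2 RMA value of each of the 10 genes on each array, with sickle left of control; symbols mark the replicate and bars give mean ± SD (n = 3 each), and every panel spans 3 log2 units around its own centre. Nppa is the 1 gene without overlap between the groups, Myh7 has the widest spread (8.28 to 10.89) and Myh6 the narrowest (13.16 to 13.28).

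The adult motor Myh6 was the steadiest of the 10 genes. It read 13.25, 13.22 and 13.16 in sickle, against 13.28, 13.17 and 13.25 in control. The 6 arrays spanned 0.12, and 1.26% of all genes spanned less. The difference was -0.02 ± 0.09 with a 95% interval from 0.855-fold to 1.14-fold (limma adjusted p = 0.956). The row stood close to the highest value of any row on each array, 13.83 to 13.93, and whether rows this bright still follow RNA amount in proportion was not tested. The same holds for Nppa and Ankrd1.

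The fetal motor Myh7 was the most variable. Its level was 9.78, 8.52 and 10.89 in sickle replicates 1, 2 and 3, against 8.28, 9.10 and 9.06 in control replicates 1, 2 and 3. Sickle replicates 1 and 3 lay above every control array, while sickle replicate 2 lay below control replicates 2 and 3. The 6 arrays spanned 2.61, and 99.8% of all genes spanned less. The difference of 0.92 ± 0.54, or 1.89-fold, had a 95% interval from 0.79-fold to 4.50-fold and did not pass (limma adjusted p = 0.653). It was 0.33 ± 0.40 without sickle replicate 3 and 1.52 without sickle replicate 2, so single arrays moved it by more than 1.5 times in either direction. Set to a control mean of 0, the ratio of Myh7 to Myh6 was 0.95, -0.29 and 2.15 in sickle replicates 1, 2 and 3, against -0.58, 0.35 and 0.23 in control replicates 1, 2 and 3. The groups overlapped. Myh6 and Myh7 encode closely related proteins, and how far their probes separate the transcripts was not tested.

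Acta1, the skeletal muscle actin that the fetal heart also uses, ordered the arrays almost as Myh7 did. It read 10.69, 10.32 and 11.39 in sickle, against 10.02, 10.69 and 10.62 in control. In both genes sickle replicate 3 was highest, control replicate 1 lowest and sickle replicate 2 next to lowest. The difference was 0.36 ± 0.29 (limma adjusted p = 0.739) and 0.06 without sickle replicate 3.

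Myh7b, an ancient myosin of slow muscle that hosts Mir499, went another way on sickle replicate 3. It read 8.44, 8.07 and 7.24 in sickle, against 7.93, 7.88 and 7.59 in control. Sickle replicates 1 and 2 were above every control array and sickle replicate 3 was below every one. The difference was 0.11 ± 0.28 (limma adjusted p = 0.924), and 0.45 ± 0.16 without sickle replicate 3 (adjusted p = 0.469, unadjusted 0.0237). In that fit 2 of the 10 genes, Nppa and Myh7b, had an unadjusted p under 0.05, as did 9.20% of all genes, and none passed the adjustment, as did 0.0976% of all genes.

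Ankrd1, a stretch-responsive protein of the sarcomere and nucleus, read 13.17, 13.28 and 13.49 in sickle, against 13.20, 13.21 and 13.42 in control. Replicate 3 was the highest array in each group. The difference was 0.04 ± 0.12, with a 95% interval from 0.846-fold to 1.24-fold (limma adjusted p = 0.944).

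**Figure D3:**
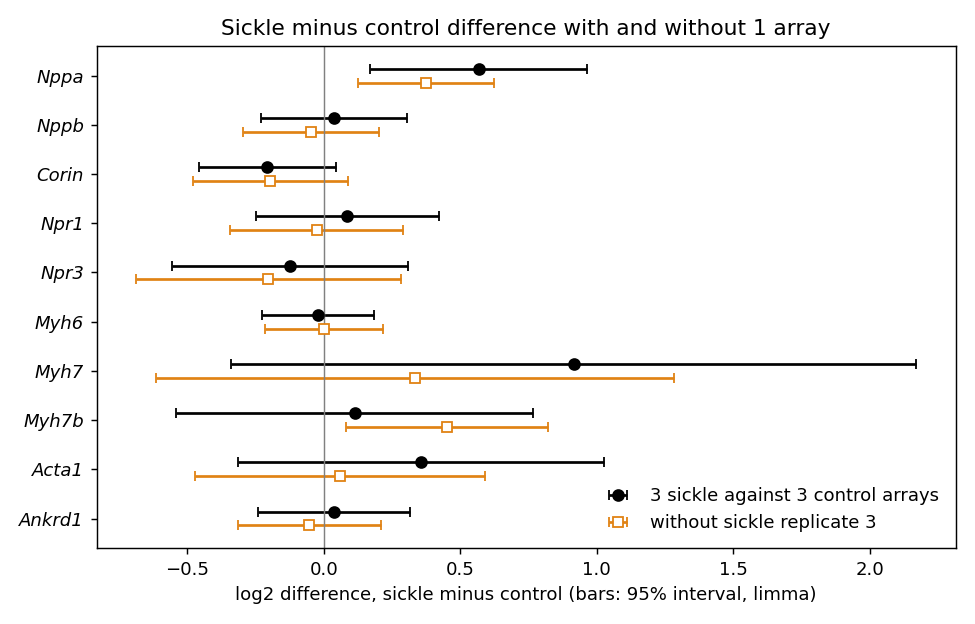
Log2 difference, sickle minus control, of the 10 genes over 6 arrays (filled circles) and without sickle replicate 3 (open squares); bars are 95% intervals from limma, not adjusted for the number of genes. Over 6 arrays the interval of Nppa alone excludes 0, and without sickle replicate 3 those of Nppa and Myh7b do.

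Sickle replicate 3, the array that stood apart, had the highest value of the 6 arrays in 6 of the 10 genes and the lowest in 2 (Myh6 and Myh7b), while over all genes it was the highest in 23.8% and the lowest in 28.3%. Markers of other cell types moved with it. Relative to the control mean, the median of 8 fibroblast markers was 0.03, 0.15 and 2.11 in sickle replicates 1, 2 and 3, against -0.07 to 0.09 in control. That of 8 macrophage markers was 0.06, 0.25 and 1.33 in sickle, against -0.12 to 0.11 in control. The log2 of the summed fibroblast level was 12.80 to 14.38 in sickle and 12.68 to 12.88 in control, and that of the macrophage level 11.19 to 12.43 in sickle and 11.03 to 11.22 in control. The part of these cells in the high Nppa, Myh7 and Acta1 of sickle replicate 3 was not tested. In bulk tissue, a change in the number of cells of a type and a change in RNA per cell cannot be told apart.

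Other marker lists split the arrays differently. The atrial list, of which 5 of 5 markers were measured, had a median of -0.34, -0.22 and -0.49 in sickle, against -0.46, -0.34 and 0.79 in control. Its summed log2 level was 7.51 to 8.41 in sickle and 7.26 to 9.50 in control, so the array with the strongest atrial signal was a control. The control mean includes that array, where Sln was 3.22 and Myl7 2.23 above the mean, which lowers both genes on the other arrays. The atrial medians of control replicates 1 and 2 lay within the sickle range. Red-cell markers, 4 of 8 analysed (Slc4a1, Epb42, Rhag and Klf1), had medians of 1.40 to 2.35 in sickle, against -0.06 to 0.16 in control. Their summed log2 level was 9.63 to 10.78 in sickle and 7.30 to 7.68 in control. Slc4a1, Epb42 and Rhag did not overlap between the groups, while Klf1 did. Relative to the control mean, Klf1 was 0.03, -0.07 and 0.56 in sickle, against -0.02, -0.06 and 0.08 in control. The red-cell median, like Nppa, did not overlap between the groups, and the part of red cells in its difference was not tested. The median of 6 endothelial markers stayed within 0.08 of the control mean on every array, and that of 6 smooth muscle markers was 0.04 to 0.49 in sickle, against -0.07 to 0.03 in control.

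**Figure D4:**
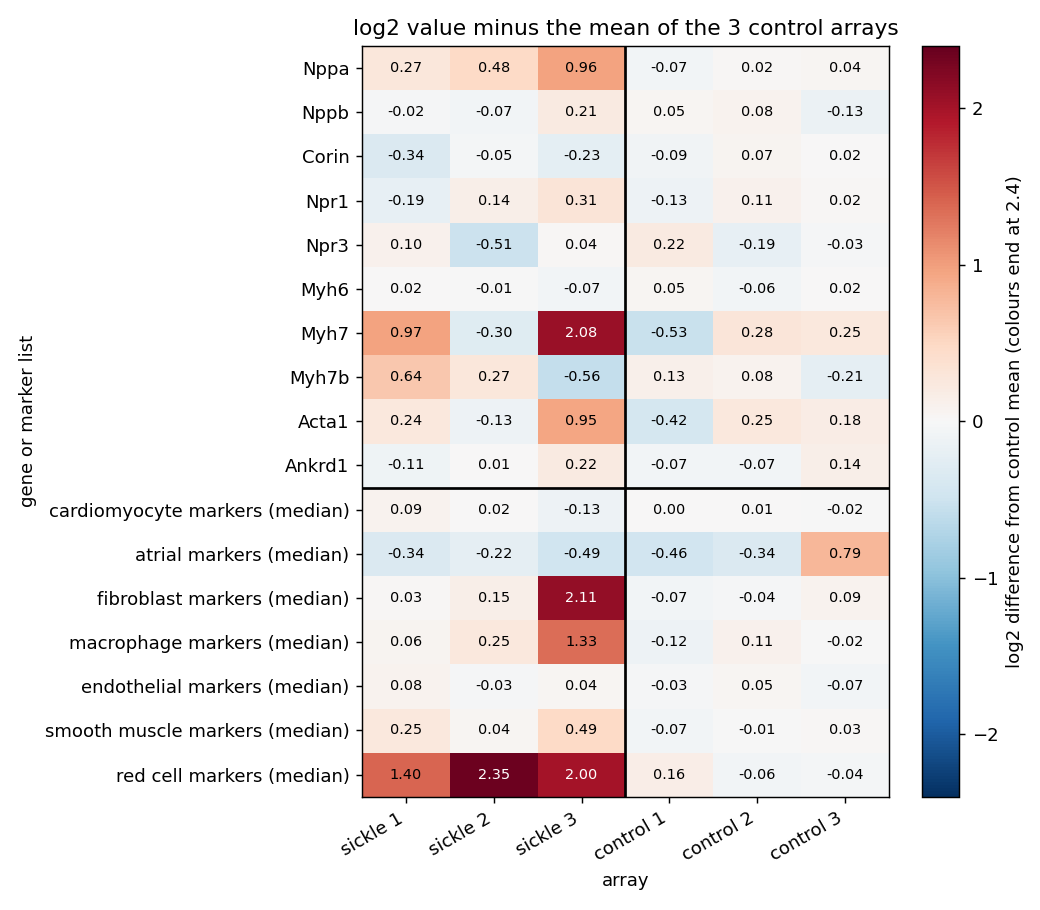
Log2 value minus the mean of the 3 control arrays, for the 10 genes (upper block) and as the median of 7 marker lists (lower block), with the sickle arrays left of the control arrays. Sickle replicate 3 stands out in Myh7 (2.08), Nppa (0.96) and Acta1 (0.95) and in the fibroblast (2.11) and macrophage (1.33) medians, and control replicate 3 in the atrial median (0.79). The control mean includes control replicate 3.

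Around the hormones, 16 further genes of the natriuretic peptide and cyclic GMP pathway were measured, of 16 listed. None was called in either direction, and their median difference was 0.04, which turned to -0.036 without sickle replicate 3 and to -0.024 without sickle replicate 1. Of them, 3 lay lower in every sickle array than in any control array, and none higher, where 8.36% and 7.61% of all genes did. Mme, neprilysin, which degrades natriuretic peptides, read 7.41, 7.20 and 7.02 in sickle, against 7.77, 7.62 and 7.48 in control (difference -0.41 ± 0.13, limma adjusted p = 0.487). Furin, a convertase that cuts the B-type precursor, read 8.98, 8.94 and 9.19 in sickle, against 9.31, 9.39 and 9.34 in control (-0.31 ± 0.10, limma adjusted p = 0.487). Pde3a, a phosphodiesterase that cyclic GMP inhibits, differed by -0.40 ± 0.13 (limma adjusted p = 0.492). Without sickle replicate 3 these differences were -0.32 for Mme, -0.39 for Furin and -0.27 for Pde3a. The peptide gene Nppc differed by -0.01, its receptor gene Npr2 by -0.15 and the kinase gene Prkg1 by 0.07.

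Of 19 other myosin chains and binding proteins, none was called and the median difference was 0.03, which ran from -0.051 without control replicate 1 to 0.13 without control replicate 3. The groups did not overlap in 2 genes, both higher in sickle, a pattern of 7.61% of all genes and so near the background. Non-muscle Myh9 read 9.50, 9.63 and 10.08 in sickle, against 9.28, 9.26 and 9.20 in control (difference 0.49 ± 0.15, limma adjusted p = 0.473). Smooth muscle Myh11 read 8.50, 8.35 and 8.37 in sickle, against 8.11, 8.09 and 8.18 in control (0.28 ± 0.09, limma adjusted p = 0.490). Myh11 is also one of the 6 smooth muscle markers, whose median difference was 0.26 with every array and 0.10 without sickle replicate 3. Non-muscle Myh10 had 0.37 ± 0.18 with overlap. Without sickle replicate 3 the difference was 0.32 for Myh9, 0.30 for Myh11 and 0.20 for Myh10. The embryonic skeletal myosin Myh3, a dim row at percentile 14.2 of mean level over all genes, differed by 0.06. The ventricular light chain Myl2 differed by -0.15 and was lowest on sickle replicate 3 (8.57, against 9.15 to 9.31 elsewhere).

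The 19 other fetal isoform and load genes had a median difference of -0.02, between -0.052 and -0.0016 with 1 array left out in turn, and none was called. Acta2, smooth muscle actin, which the early heart also uses, read 10.65, 10.76 and 10.99 in sickle, against 10.31, 10.55 and 10.44 in control (difference 0.37 ± 0.12, limma adjusted p = 0.492), and it too is a smooth muscle marker. Xirp1, an actin-binding protein of the intercalated disc, read 9.85, 9.78 and 9.64 in sickle, against 9.99, 10.18 and 10.00 in control (-0.31 ± 0.10, limma adjusted p = 0.504). Rcan1, a target of calcineurin signalling, had 0.28 ± 0.12 with overlap (limma adjusted p = 0.574). Adult isoforms and calcium genes of this list had small differences: Actc1 differed by -0.06, Tnni3 by -0.11, Atp2a2 by 0.00 and Pln by -0.07. In all, sickle lay wholly above control in 2 of the 19 and wholly below in 4, where the all-gene shares were 7.61% and 8.36%.

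Of 26 regulators of these genes, none was called, and the median difference was -0.04, which was 0.0037 without sickle replicate 3 and -0.084 without sickle replicate 2. Sickle lay wholly below control in 7 and wholly above in 3, where the shares over all genes were 8.36% and 7.61%. Nkx2-5, a homeobox factor that drives Nppa, read 8.73, 8.57 and 8.58 in sickle, against 8.95, 9.01 and 9.00 in control (difference -0.36 ± 0.09, limma adjusted p = 0.387, unadjusted 0.00491). Hand2, of the ventricle, read 7.22, 7.17 and 7.34 in sickle, against 7.44, 7.60 and 7.83 in control (-0.38 ± 0.12, limma adjusted p = 0.487). Sox6, which represses Myh7 in skeletal muscle of mice, read 6.90, 7.18 and 6.76 in sickle, against 7.38, 7.23 and 7.36 in control (-0.38 ± 0.13, limma adjusted p = 0.496). Without sickle replicate 3 these were -0.34 for Nkx2-5, -0.42 for Hand2 and -0.28 for Sox6. Thyroid hormone receptors set the balance of Myh6 over Myh7. Thrb had -0.33 and Thra -0.12, neither past the adjustment. Gata4 differed by -0.18, Srf by 0.03 and the Nppa repressor Rest by 0.16.

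**Figure D5:**
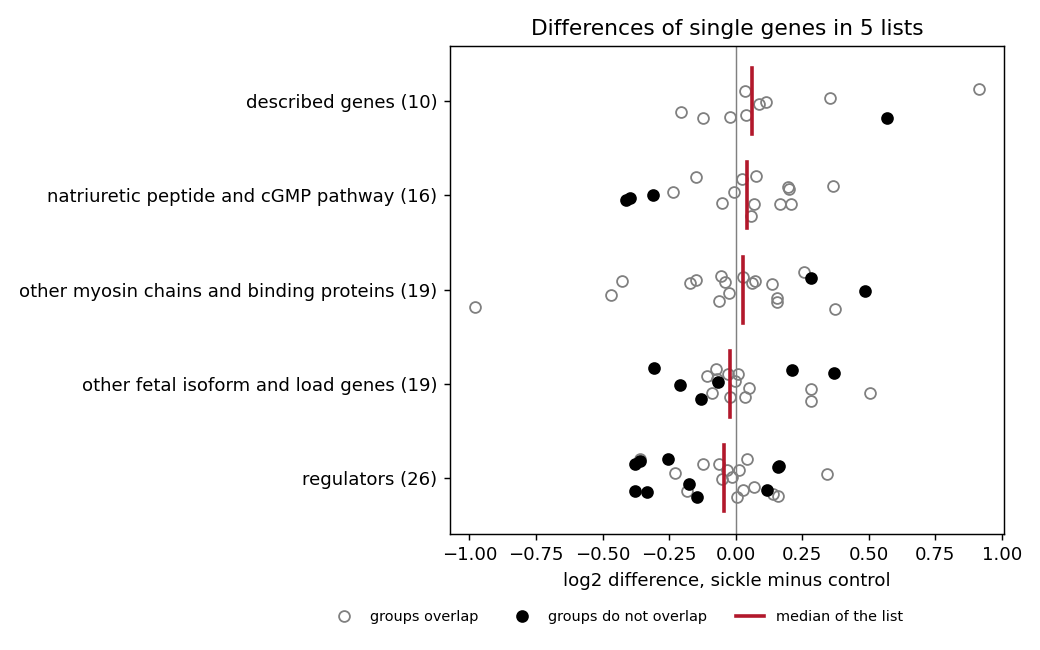
Log2 difference, sickle minus control, of single genes in the 10 described genes and in 4 related lists, with the number of measured genes in brackets; filled points are genes whose groups do not overlap, and red lines are list medians. The medians lie between -0.04 and 0.06, and filled points number 3 of 16 genes in the natriuretic pathway, all negative, and 10 of 26 in the regulators, 7 of them negative, where over all genes 8.36% lay wholly below control and 7.61% wholly above.

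None of the 3 microRNA rows was called. Mir208b, in the intron of Myh7, read 3.50, 3.23 and 3.47 in sickle, against 3.99, 3.60 and 3.37 in control. Its row was dim, at percentile 14.5 of mean level over all genes, and that of Mir499 was at 20.0. The host Myh7 spanned 2.61, and whether so dim a row can follow its host was not tested. Mir499 read 3.98, 3.65 and 3.87 in sickle, against 4.16, 4.26 and 3.60 in control. Mir208a, in Myh6, read 7.88, 6.99 and 6.48 in sickle, against 6.52, 7.80 and 6.94 in control. Their differences were -0.26, -0.18 and 0.03, in that order. Whether such a row detects the mature arms shown above, the hairpin or the host transcript was not tested. Mhrt, a heart long non-coding RNA next to Myh7 in the gene table, was chosen after its values were seen. It read 10.40, 10.45 and 9.82 in sickle, against 10.36, 10.20 and 10.07 in control (difference 0.01 ± 0.18, limma adjusted p = 0.991).

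For the 4 genes whose arrays spanned over 0.75, the 3 most alike profiles over the 6 arrays were found by the root-mean-square difference between values centred on each gene's mean. Nearest to Nppa were Cd300lb (0.053), Stab1 (0.054) and Lrrc32 (0.057). Stab1, a scavenger receptor of macrophages and some endothelial cells, read 7.88, 8.07 and 8.62 in sickle, against 7.58, 7.69 and 7.56 in control. Nearest to Myh7 were Ifi204 (0.27), Frzb (0.28) and Eya4 (0.29), the largest differences of the 4. The measure grows with a gene's own spread. The root-mean-square spread of Myh7 about its own mean was 0.87, against 0.35 for Nppa, 0.37 for Myh7b and 0.42 for Acta1. Frzb, a secreted Wnt antagonist, read 6.86, 6.32 and 8.43 in sickle, against 6.16, 6.35 and 6.63 in control. Nearest to Acta1 were Tubb3 (0.088), Ptk2b (0.089) and Dzip1 (0.094), and nearest to Myh7b were Mir9-3 (0.10), Ppfia3 (0.13) and Ankrd60 (0.14). These are nearest among 21506 genes over 6 arrays, of which sickle replicate 3 is one, and carry no test.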

How the data were processed

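The authors deposited log2 values made with RMA, per the submitters' processing notes, which name no version or settings; RMA is known as background correction, quantile normalisation and probe summary. That scale is inferred from the range of the values, and array medians lay between 5.50 and 5.54. No scan date or batch was used here, and the number of arrays limits the precision. Of 25293 rows, 22030 had 1 symbol in the platform annotation, 685 several and 2578 none. For 465 genes with several rows the brightest stood for the gene, which left 21506 genes with no filter on dim ones. Symbols were updated through gene numbers, found in RefSeq for 21930 rows.

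Groups were compared with limma 3.58.1 (lmFit, then eBayes) in R 4.3.3, group as the only term, two-sided, with 4 residual and 3.61 prior degrees of freedom and Benjamini-Hochberg adjustment over all genes. Each array is a mouse of its own, per the labels. Replicate numbers were not treated as pairs. The deviations of same-numbered arrays from their group means correlated at 0.11, -0.05 and 0.05. Sickle replicate 3, which stood apart, weighs on these deviations, so they cannot settle whether same-numbered arrays shared a batch. The fit was tested on simulated data. It recovered 20.9% of 67 genes simulated with a 1.5-fold change, 73.1% of 67 at 2-fold and 100% of 66 at 4-fold, with 5 false calls. Whether the simulated spread resembles that of these arrays, with sickle replicate 3 apart, was not tested. The rates are therefore not the power for the genes described. Named genes are the 10 studied, the 3 smallest p in each list without a call, the nearest profiles and the atrial markers; other list genes were named after their values were seen. Genes, lists and tests were chosen with earlier results of these data known. Of the 8 red-cell markers listed, 4 were not analysed here. Alternatives are given in the closing section. Figures were drawn with matplotlib 3.10.9.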

Additional observations from a re-analysis of the deposited data

How the results depend on the processing

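Of the 10 genes, 0 passed the adjustment under each of 14 other settings, and also in a fit chosen after seeing the data that left out sickle replicate 3 and control replicate 3 together. At an unadjusted p under 0.05, limma over all 6 arrays had 1 of the 10 genes, beside 8.69% of all genes. Over these settings Nppa stayed between 0.37 and 0.72 (adjusted p from 0.305 to 0.781), Myh7 between 0.33 and 1.52 (0.362 to 0.872), Acta1 between 0.06 and 0.60, and Corin between -0.28 and -0.14. The sign turned in 6 genes. With 1 array left out in turn, Ankrd1 ran from -0.0523 to 0.111, Myh6 from -0.0531 to 0.0028, Myh7b from -0.149 to 0.452, Nppb from -0.0468 to 0.0946, Npr1 from -0.0256 to 0.226 and Npr3 from -0.237 to 0.0699. With array weights Ankrd1 had -0.0172, Nppb -0.0177 and Npr1 -0.0032. Npr1 had -0.0439 as the mean of its rows and -0.175 on its other row. Without both replicates 3, Myh6 had 0.0113, Nppb -0.113 and Npr1 -0.0158. Over all genes the 39 calls became 12 with the replicate number as a block, 0 in limma without variance moderation (1740 genes at an unadjusted p under 0.05), 0 in limma without both replicates 3 (1785 genes at an unadjusted p under 0.05), and between 4 and 36 when 1 array was left out. They became 31 with median centring and 33 with the mean over all rows of a gene. The count was higher in other settings: 42 with only genes above the median brightness and 44 with quantile normalisation again. It was 50 with array weights, and also 50 with an intensity trend and robust prior. The block changed no call among the 10 genes. The cause of these shifts was not tested. With 1 array left out, the median of the 10 genes ran from -0.011 to 0.11, beside -0.014 to 0.00072 over all genes. The 3 arrays a group limit the precision of every difference.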
